A study of Mus musculus with 6 samples.

Results

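The non-clustered delta protocadherins were examined in brains that lack Mphosph8, the gene of the HUSH subunit MPP8. They were taken by gene symbol as 10 of the 54532 genes counted. The delta-1 group held Pcdh1, Pcdh7, Pcdh9 and Pcdh11x, and the delta-2 group held Pcdh8, Pcdh10, Pcdh17, Pcdh18, Pcdh19 and Pcdh20. RNA of whole brains of C57BL/6J mice at postnatal day 14 was sequenced, with 1 library per mouse. The 3 control mice were Mphosph8fl/+ Nestin-Cre+ and the 3 mutant mice were Mphosph8fl/fl Nestin-Cre+, so both groups carried the recombinase and the controls kept 1 unfloxed allele. Nestin-Cre acts in neural precursors and their descendants, and vessels, blood and microglia in a whole brain keep the gene.

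Protocadherins are cell surface adhesion proteins of the cadherin superfamily. The clustered protocadherins lie in tandem arrays, and each neuron uses only some of them. The delta protocadherins are separate genes scattered over the genome, each with its own promoter, and are expressed in overlapping patterns across brain regions, where they act in axon growth, in the sorting of cells and at synapses. The delta-1 proteins have 1 more extracellular cadherin repeat than the delta-2 proteins, and the groups differ in conserved stretches of the cytoplasmic tail.

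No delta protocadherin passed the test for a difference between control and mutant brains. None of the 10 members had an adjusted p under 0.05 in edgeR's quasi-likelihood test, in either direction, while 0.628% of the 16731 genes tested did. At an unadjusted p under 0.05 the count was also 0, against 6.51% of all genes tested, and DESeq2 and limma-voom each gave 0 members as well. All 10 members passed the filter on low counts and so were tested. The 95% intervals of the 10 fold changes ran from 0.819 at the lowest to 1.28 at the highest, so a 2-fold change in either direction lay outside every one of them. The median log2 fold change was 0.017 over the members and -0.0073 over all genes tested. Mutant and control libraries overlapped for all 10 members, against 11.6% of all genes tested for which they did not.

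The depth was 12956880 to 15223424 counts per library, and a member had between 211 and 3280 counts in a library. Levels are given as CPM, the count of a gene scaled to a common library size. Mphosph8 averaged 58.4 ± 11.3 CPM in the control libraries (SD, n = 3) and 28.9 ± 3.63 CPM in the mutant ones (SD, n = 3). Its log2 fold change was -1.02 ± 0.12 (SE, edgeR adjusted p 0.000157), and counts over the whole gene include the part outside the deletion. Control replicate 3 held 3641 counts of Ddx3y, Eif2s3y, Kdm5d and Uty together and 27 of Xist. The other 5 libraries together held 1 count of these Y-linked genes and at least 11130 of Xist each. These counts are those of a male in control replicate 3 and of females in the other 5 libraries. The labels give no sex, and by these counts the groups were not balanced for it. Mutant replicate 1 stood apart from the other libraries for the members, as described further on. Where leaving out either library turned the direction of a member's value, both values are given.

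The promoters of 3 members are shown because they span the range of CG content in a family of which no gene passed the test. Of the 10 members, 8 have a RefSeq promoter window here (GRCm38.p6, 250 bases before to 50 bases after the start, strand of the gene). The windows of Pcdh17, at chr14:84443313-84443612 on the plus strand, of Pcdh10, at chr3:45378148-45378447 on the plus strand, and of Pcdh20, at chr14:88471347-88471646 on the minus strand, read as follows, with capitals marking each CG dinucleotide, which reads the same on both strands.
Pcdh17: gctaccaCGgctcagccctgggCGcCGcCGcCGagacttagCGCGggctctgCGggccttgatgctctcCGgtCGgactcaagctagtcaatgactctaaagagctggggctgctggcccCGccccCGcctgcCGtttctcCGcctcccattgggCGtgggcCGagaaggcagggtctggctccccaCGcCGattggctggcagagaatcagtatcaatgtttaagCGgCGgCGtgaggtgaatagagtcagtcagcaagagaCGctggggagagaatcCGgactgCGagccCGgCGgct
Pcdh10: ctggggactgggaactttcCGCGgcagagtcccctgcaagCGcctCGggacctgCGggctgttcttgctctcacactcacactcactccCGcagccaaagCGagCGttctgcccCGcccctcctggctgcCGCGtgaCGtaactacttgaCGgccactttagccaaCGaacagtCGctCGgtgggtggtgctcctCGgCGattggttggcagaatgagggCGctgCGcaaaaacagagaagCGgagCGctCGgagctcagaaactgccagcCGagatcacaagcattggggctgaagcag
Pcdh20: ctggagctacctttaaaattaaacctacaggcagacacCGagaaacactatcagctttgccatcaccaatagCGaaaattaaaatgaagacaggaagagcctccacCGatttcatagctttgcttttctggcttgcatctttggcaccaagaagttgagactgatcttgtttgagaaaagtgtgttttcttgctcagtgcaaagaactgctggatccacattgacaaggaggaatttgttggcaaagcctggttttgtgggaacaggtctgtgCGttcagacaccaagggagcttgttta
Pcdh17 has the most CG dinucleotides of the 8 windows, 26 of them, and Pcdh10 has 24. Pcdh20 has 4, a number that only 9.15% of the windows of tested genes equal or fall below. Between these lie Pcdh18 with 23, Pcdh9 and Pcdh19 with 18 each, Pcdh8 with 14 and Pcdh7 with 11. The median was 20 over the windows of 12064 tested genes, of which 99.5% held at least 1 CG. The log2 fold changes of the richest and the poorest window, Pcdh17 and Pcdh20, were 0.15 ± 0.098 and -0.052 ± 0.11 (SE). Both 95% intervals included 0, and without mutant replicate 1 the values were 0.0055 and -0.15. A relation between CG content and fold change was not tested.

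**Figure D1:**
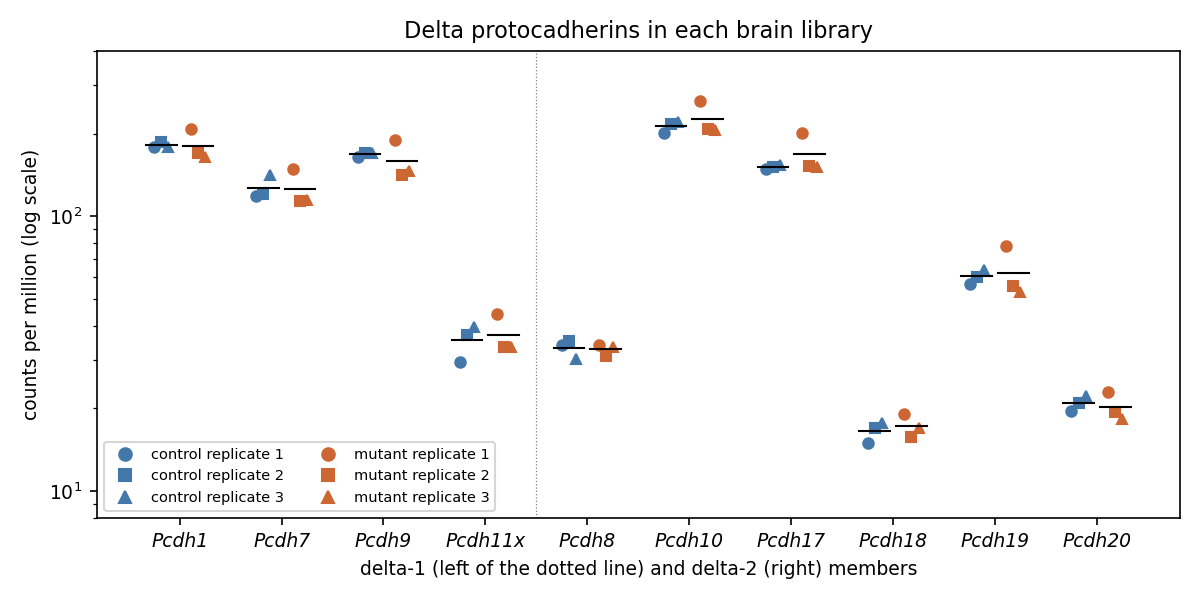
CPM (log axis) of each delta protocadherin in the 3 control (blue) and 3 mutant (orange) libraries, with a black line at each group mean. Pcdh10 is the highest member by CPM and Pcdh18 the lowest, and mutant replicate 1 (orange circle) is the highest library for 9 of the 10 genes.

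Among the delta-1 genes, Pcdh1, which encodes a receptor used by New World hantaviruses, was at 179, 187 and 178 CPM in the control libraries and at 207, 169.6 and 165 CPM in the mutant libraries. Its log2 fold change was -0.0073 ± 0.090 (SE), with a 95% interval of -0.20 to 0.18 and an edgeR adjusted p of 0.996. The mutant values lay on both sides of the control values. Pcdh1 lies on chromosome 18 (38185914 to 38212053, minus strand, GRCm38), 0.344 Mb beyond the last gene of the clustered arrays. Within 1 Mb of it, 26 of 74 tested genes were higher and 3 lower at an adjusted p under 0.05, and 24 of the 26 were clustered protocadherins. The other 2 were the noncoding RNA 3222401L13Rik, at 3.84 ± 0.15, and Gm26672, at 1.16 ± 0.15 on the log2 scale (edgeR adjusted p 3.23e-11 and 0.000332). All 3 that were lower, Pcdhgc4, Pcdhgc3 and Pcdha12, were clustered protocadherins too.

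Pcdh7, whose cytoplasmic tail binds protein phosphatase 1, was at 119, 121 and 141 CPM in controls and at 149, 114 and 115 CPM in mutants. The groups overlapped, with control replicate 3 and mutant replicate 1 above the other 4 libraries, and the log2 fold change was -0.013 ± 0.10 (SE, edgeR adjusted p 0.996). Without control replicate 3 it was 0.073 ± 0.11 (edgeR adjusted p 0.975), and without mutant replicate 1 it was -0.15 ± 0.085 (edgeR adjusted p 0.636). Of its 10604 annotated exonic bases, 2235 lie opposite exons of 4932441J04Rik. The strand setting of the counting is not given in the sources used here, and that partner summed to 299 counts in control and 314 counts in mutant libraries.

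Pcdh9, an adhesion gene of the cortex spread over a very long stretch of chromosome 14, had the lowest estimate of the family. It was at 165, 169.8 and 169.3 CPM in controls and at 189, 141 and 146 CPM in mutants. Mutant replicates 2 and 3 lay below every control library and mutant replicate 1 lay above them all. The log2 fold change was -0.083 ± 0.098 (SE), with a 95% interval of -0.29 to 0.12 and an edgeR adjusted p of 0.957.

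Pcdh11x, an X-linked gene with a Y-linked counterpart in humans, was the lowest of the delta-1 genes, at 29.6, 36.9 and 39.7 CPM in controls and at 44.2, 33.4 and 33.4 CPM in mutants. The controls spread more widely for this gene than for any other member, with a coefficient of variation of 14.7%. Its log2 fold change was 0.063 ± 0.12 (SE, edgeR adjusted p 0.984), and 0.16 ± 0.13 without control replicate 3 (edgeR adjusted p 0.952). It turned negative without mutant replicate 1, at -0.084 ± 0.11 (edgeR adjusted p 0.899), and without control replicate 1, at -0.053 (edgeR adjusted p 0.989).

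In the delta-2 group, Pcdh10 acts in axon growth and in the turnover of the synaptic scaffold protein PSD-95. It had the most reads of the family, with 202, 217 and 219 CPM in controls and 262, 208 and 206 CPM in mutants. Mutant replicate 1 lay above the controls, and the other mutant values fell within their range. The log2 fold change was 0.083 ± 0.095 (SE, edgeR adjusted p 0.955), and without mutant replicate 1 it was -0.040 ± 0.076 (edgeR adjusted p 0.930).

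Pcdh17, which acts in presynaptic assembly in circuits between cortex and basal ganglia, had the highest estimate, at 0.15 ± 0.098 (SE) with a 95% interval of -0.055 to 0.36 and an edgeR adjusted p of 0.897. The control libraries were at 148, 151 and 154 CPM, and the mutant libraries at 200.1, 152 and 151 CPM. Mutant replicates 2 and 3 lay inside the narrow control range, and mutant replicate 1 lay above it. Without that library the log2 fold change of Pcdh17 was 0.0055 ± 0.074 (edgeR adjusted p 0.991).

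Pcdh19, the X-linked gene mutated in an epilepsy that affects mainly girls, was at 56.9, 60.3 and 64.0 CPM in controls and at 77.6, 55.8 and 53.1 CPM in mutants. This was the widest spread among mutants of any member, with a coefficient of variation of 21.6%. Its log2 fold change of 0.040 ± 0.12 (SE, edgeR adjusted p 0.988) became 0.086 ± 0.13 without control replicate 3 (edgeR adjusted p 0.975). Without mutant replicate 1 it turned to -0.15 ± 0.086 (edgeR adjusted p 0.645).

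Pcdh8, also called arcadlin, is induced by neuronal activity and drives the uptake of N-cadherin at synapses. It was at 34.1, 35.1 and 30.2 CPM in controls and at 34.1, 31.0 and 33.6 CPM in mutants, the one member for which mutant replicate 1 was not the highest library. The log2 fold change was -0.010 ± 0.094 (SE, edgeR adjusted p 0.996). Of 10 other activity-induced genes none passed the test, against 0.628% of all genes tested. In this list 9 had a negative log2 fold change and the median was -0.25. The largest was Egr2, at -0.75 ± 0.29 with an edgeR adjusted p of 0.552. Control replicate 3 had the lowest summed level of the list, 144 CPM. Control replicate 1 was at 219 CPM and control replicate 2 at 278 CPM, with mutants between 164 and 187 CPM. Without control replicate 3 all 10 were negative with a median of -0.49, and 1 passed, Arc, at -0.67 ± 0.13 (edgeR adjusted p 0.0372). Without control replicate 2 the median was -0.063 and 0 passed.

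The remaining delta-2 genes had few reads. Pcdh18, whose protein binds the adaptor Dab1, was at 14.96, 16.9 and 17.7 CPM in controls and at 19.1, 15.8 and 17.0 CPM in mutants, with a log2 fold change of 0.065 ± 0.12 (SE, edgeR adjusted p 0.979) that was -0.012 ± 0.12 without mutant replicate 1 (edgeR adjusted p 0.989). Pcdh20 was at 19.6, 20.9 and 22.3 CPM in controls and at 22.9, 19.5 and 18.2 CPM in mutants, with -0.052 ± 0.11 (edgeR adjusted p 0.984). For both genes mutant replicate 1 lay above the controls, and the other mutant values lay within their range for Pcdh18 and below it for Pcdh20.

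**Figure D2:**
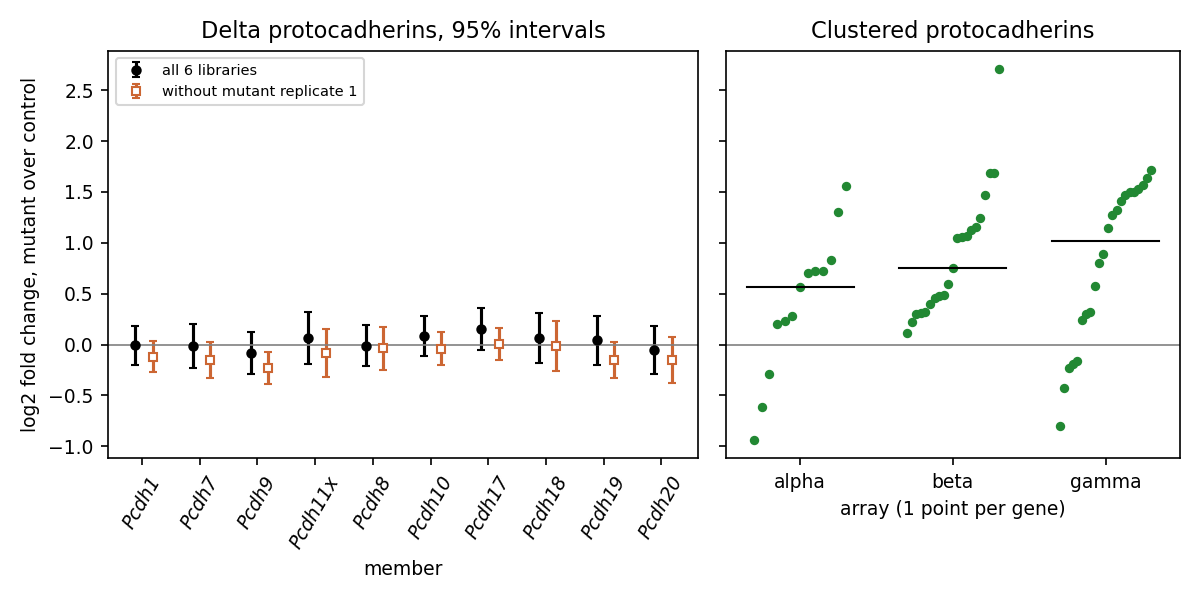
Left, log2 fold change of each delta protocadherin (mutant over control) with its 95% interval, from all 6 libraries (black) and without mutant replicate 1 (orange, open). Right, the same quantity for each tested clustered protocadherin, with a line at the median of each array. The highest upper bound among the delta genes is 0.36 from all 6 libraries, and the medians of the alpha, beta and gamma arrays are 0.57, 0.75 and 1.02.

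The clustered protocadherins are set beside them because the study centred on that cluster. Their median log2 fold change was 0.72 over 56 tested genes, of which 24 were higher and 3 lower at an adjusted p under 0.05, against 0 and 0 of the 10 delta genes. The 95% interval of 26 clustered genes, 2 alpha, 11 beta and 13 gamma, lay wholly above 0.36, the highest upper bound of any delta gene. The intervals are not adjusted for the number of genes tested, and no alpha gene passed the test as higher. Of the 26, Pcdha1, Pcdha8 and Pcdhb15 did not pass (edgeR adjusted p 0.146, 0.165 and 0.0919). For 2 clustered genes the interval lay wholly below -0.29, the lowest bound of any delta gene. The difference between the families as such was not tested.

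Like the clustered genes, delta genes encode most of their ectodomain in a single large exon. In the GENCODE M21 annotation the largest coding exon of the members ran from 2147 bases in Pcdh19 to 3174 bases in Pcdh7 and held from 62.2% of the coding bases in Pcdh11x to 95.4% in Pcdh20. Every member had more than 1 coding exon, from 2 in Pcdh20 to 7 in Pcdh11x. Outside the clustered genes and the members, 357 tested genes had a coding exon at least as large together with other coding exons, and 3 of them were higher (0.840%) and 0 lower, against 0.532% of all tested genes that were higher. These were Tdrd6, Tchh and Vinac1, at 1.42 ± 0.27, 1.08 ± 0.19 and 1.91 ± 0.38 (SE) on the log2 scale. Their levels were low, with control means of 1.25, 2.91 and 0.416 CPM. Of 88 such genes with a single coding exon, Map10 alone passed, at 1.49. These genes were chosen after their values were seen.

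CPM values do not compare genes of different length, so levels were also expressed per kilobase of annotated exon (RPKM). Over the 6 libraries Pcdh9, at 24.1 ± 2.56 RPKM (SD, n = 6), and Pcdh1, at 20.6 ± 1.70 RPKM, were highest, and their ranges overlapped. Pcdh10 at 13.8 ± 1.40, Pcdh17 at 12.3 ± 1.54 and Pcdh7 at 11.9 ± 1.41 RPKM followed, again with overlapping ranges. Pcdh8 at 7.27 ± 0.431 and Pcdh19 at 5.86 ± 0.846 RPKM overlapped each other and lay below those 3. Pcdh20 at 3.75 ± 0.328, Pcdh18 at 3.15 ± 0.271 and Pcdh11x at 2.596 ± 0.374 RPKM were lowest, and each overlapped its neighbour in this order. With the length of the longest transcript in place of all exonic bases, Pcdh1 came first by its mean, 33.4 RPKM. Pcdh10 came second at 26.6 RPKM, followed by Pcdh9 at 25.0 RPKM. The ranges of Pcdh1 and Pcdh10 overlapped, as did those of Pcdh10 and Pcdh9. This measure divides the reads of all exons by the length of 1 transcript. The level of highest over lowest was 9.28 with all exonic bases and 10.2 with the longest transcript.

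**Figure D3:**
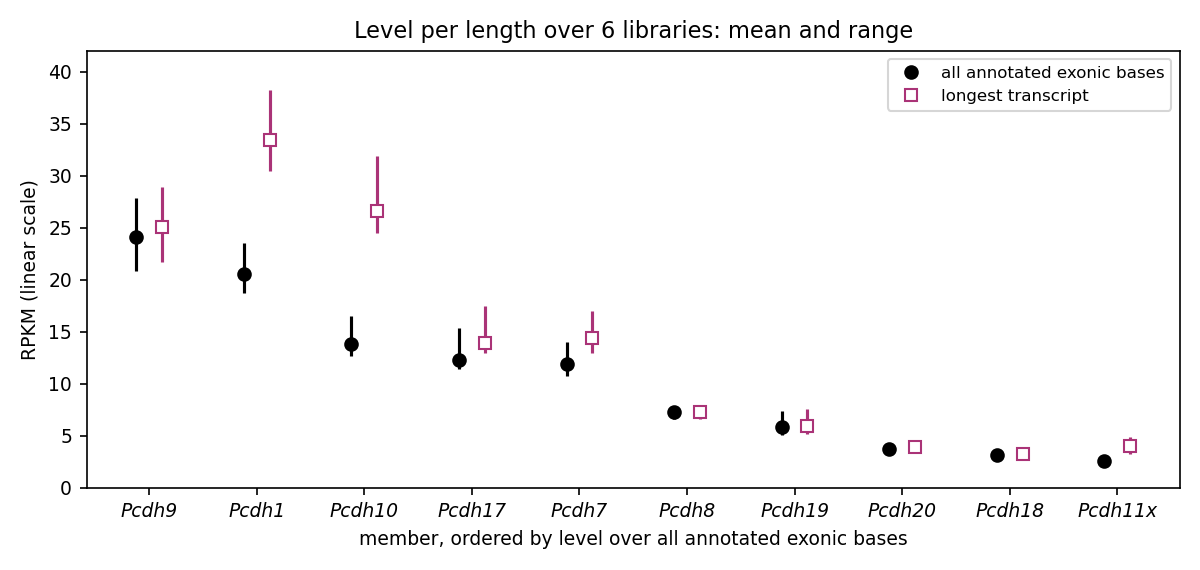
RPKM (reads per kilobase of exon, scaled like CPM, linear axis) of each delta protocadherin over all 6 libraries, with the mean as a symbol and the range as a line, computed over all annotated exonic bases (black) or the longest transcript (purple, open). By their means Pcdh9 and Pcdh1 lead in the first measure, and Pcdh1 and Pcdh10 in the second.

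Summed over members, the delta-1 genes came to 492, 514 and 529 CPM in controls and to 589, 458 and 459 CPM in mutants. The delta-2 genes came to 475, 501 and 508 CPM in controls and to 616, 482 and 479 CPM in mutants. In both groups mutant replicate 1 was above every control, and the other 2 mutant libraries lay below every delta-1 control sum and within the range of the delta-2 control sums. The ratio of mutant to control means was 0.981 for delta-1 and 1.06 for delta-2, and 0.896 and 0.972 without mutant replicate 1.

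Mutant replicate 1 was the highest of the 6 libraries for 9 of the 10 members, against 21.6% of all genes tested. For these 9 its level was 1.17 to 1.43 times the mean of mutant replicates 2 and 3, and for Pcdh8 it was 1.06 times. Over all tested genes the median of this ratio was 0.996 and the 90th percentile was 1.25. Among the tested clustered protocadherins it was the highest library for 39 of 56, with a median ratio of 1.24. Of these 56 genes, 24 were higher in mutants at an adjusted p under 0.05. The 21.6% over all genes is therefore not a like comparison for the clustered genes. Mutant replicate 1 was picked out after its values were seen. When all tested genes were split into 10 bins of near equal size, the median ratio ran from 0.970 to 1.05 by GC content of the longest transcript, from 0.959 to 1.01 by exonic length and from 0.982 to 1.04 by the span of the gene. The part of any of these in the members' values was not tested.

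**Figure D4:**
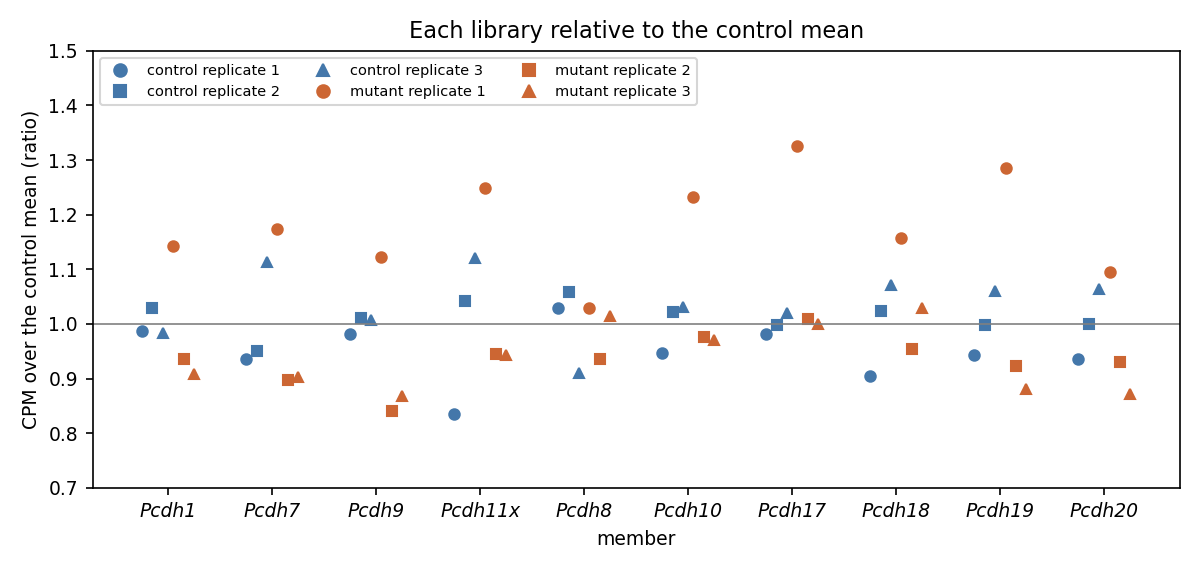
CPM of each library divided by the control mean of the same gene (ratio, linear axis, line at 1), for each delta protocadherin. Mutant replicate 1 (orange circle) reaches 1.33 for Pcdh17, and the mean of mutant replicates 2 and 3 is between 0.855 and 1.00 for the 10 genes.

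Without mutant replicate 1, 9 of the 10 members had a negative log2 fold change, with a median of -0.10, against -0.0019 over the 17070 genes tested in that fit. No member passed an adjusted p under 0.05, against 0.949% of those genes. At an unadjusted p under 0.05 there was 1 member (9.10% of all genes), Pcdh9, at -0.23 ± 0.075 (SE), with a 95% interval of -0.38 to -0.071 and an edgeR adjusted p of 0.259. In Pcdh1, Pcdh7, Pcdh9, Pcdh19 and Pcdh20, 5 of the 10 members, mutant replicates 2 and 3 both lay below every control library. This held for 12.9% of all genes tested. In 0 members both lay above every control, which held for 12.6% of all genes tested. Mutant replicate 1 was singled out for being highest in 9 members, so lower values without it partly follow from that choice. The values over all genes were not selected in this way, so the comparison is not a like one.

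Markers of brain cell types were detected in every library. The 8 oligodendrocyte markers all had a negative log2 fold change, with a median of -0.47, and 2 of them passed the test, Mog at -0.49 ± 0.10 (SE, edgeR adjusted p 0.0351) and Cldn11 at -0.49 ± 0.11 (edgeR adjusted p 0.0496). With mutant replicate 1 left out 5 passed, and with any other single library left out 0 passed, while all 8 stayed negative in each of these fits. Their summed level was 21576 to 25839 CPM in controls and 17129 to 19850 CPM in mutants, and mutant replicate 1 had the highest sum among the mutants, as it did for 7 of the 8 cell type lists, the exception being microglia. In bulk RNA, fewer cells of a type and less RNA per cell cannot be told apart, and the part of this list in the level of Pcdh9 or any other member was not tested.

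The other marker lists had no gene past the threshold, against 0.628% of all genes tested. Neuron markers, 8 genes, had a median of -0.035, with sums of 3207 to 3430 CPM in controls and 3101 to 3334 CPM in mutants, and the largest value was that of Gad2, at 0.21 (edgeR adjusted p 0.573). Astrocyte markers, 8 genes, had a median of 0.068, with sums of 7850 to 9131 CPM and 8773 to 9311 CPM, Aldh1l1 stood at 0.26 (edgeR adjusted p 0.465), and 4 of the 8 were highest of all libraries in mutant replicate 1. The 6 markers of oligodendrocyte progenitors and their lineage had a median of -0.11, with sums of 1026 to 1056 CPM and 912 to 1013 CPM. Sox10 stood at -0.29 (edgeR adjusted p 0.210), Gpr17 at -0.22, Olig2 at -0.15, Olig1 at -0.068, Cspg4 at -0.015 and Pdgfra at 0.012. The 6 endothelial markers had a median of -0.088, with sums of 561 to 595 CPM and 515 to 603 CPM, Pecam1 was at -0.12 (edgeR adjusted p 0.912), and 3 of the 6 were highest in mutant replicate 1. The 6 pericyte and meningeal markers had a median of -0.13, with sums of 681 to 805 CPM and 600.2 to 775 CPM, and Lum was at -0.17 (edgeR adjusted p 0.945). For the 6 microglia markers the median was 0.060, with sums of 449 to 496 CPM and 469 to 549 CPM, and Csf1r was at 0.15 (edgeR adjusted p 0.871). For the 5 blood genes it was 0.17, with sums of 333 to 406 CPM and 326 to 412 CPM. Alas2 was at 0.25 (edgeR adjusted p 0.890), and 4 of the 5 were highest in mutant replicate 1. Mutant replicate 1 was highest for 2 of 8 neuron, 2 of 6 pericyte and meningeal and 1 of 6 progenitor markers. It was highest for 0 of 6 microglia and 0 of 8 oligodendrocyte markers. The share over all genes tested was 21.6%.

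Among genes that work with the delta protocadherins none passed the threshold either, against 0.628% of all genes tested. At that share lists this short would mostly hold none. The WAVE complex drives branched actin growth and is recruited by the tails of Pcdh10, Pcdh17 and Pcdh19. Of its 9 subunit genes 0 passed, the median was 0.023, and the largest value was that of Wasf3, at 0.15 ± 0.077 (SE, edgeR adjusted p 0.806). Of 6 other partners, Cdh2, Taok2, Ppp1ca, Set, Dab1 and Ctnnb1, 0 passed, the median was 0.021, and the largest value was that of Dab1, at 0.14 ± 0.078 (edgeR adjusted p 0.866). Mef2a, Mef2c, Mef2d, Mdm2, Dlg4 and Fmr1 belong to the route by which Pcdh10 removes PSD-95. Of these 6 genes 0 passed, the median was 0.054, and Dlg4, which encodes PSD-95, was at 0.17 ± 0.092 (edgeR adjusted p 0.811). Another 3 genes of the family outside the arrays did not pass, the vascular gene Pcdh12 at 0.14, the hair cell gene Pcdh15 at 0.15 and the photoreceptor gene Cdhr1 at -0.18, which was the largest (edgeR adjusted p 0.875).

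The 4 members Pcdh8, Pcdh17, Pcdh20 and Pcdh9 lie on chromosome 14, from 23.1 to 36.3 Mb beyond Mphosph8. Within 1 Mb of the 9 members other than Pcdh1, 43 genes were tested, and 0 were higher and 0 lower at an adjusted p under 0.05. Over all genes tested, 0.532% were higher and 0.0956% lower. At such shares few or none of 43 genes would pass, so the count says little about these neighbours.

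Genes with the most similar profile were sought for the member with the smallest p in each group, by the root mean square difference of log2 CPM over the 6 libraries after centring each gene on its own mean. For Pcdh9 these were Clstn1, Pcsk2 and Npc1, at 0.024, 0.025 and 0.025, and Pcdh1, the nearest member, came 89th at 0.059. For Pcdh17 they were Cadm1, Ext1 and Sorcs3, at 0.014, 0.025 and 0.030, and Pcdh10, the nearest member, came 10th at 0.046. In all the genes named here mutant replicate 1 was the highest library, at 368 CPM for Cadm1 and 1309 CPM for Clstn1. The matches are the closest of 16731 genes over only 6 libraries, and shared regulation was not tested.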

How the data were processed

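PolyA RNA of 6 whole brains was sequenced as single reads of 50 bases. Per the labels and the study's methods, the authors trimmed reads with Trim Galore 0.5.0, removed abundant sequences with Bowtie2 2.3.4.1, aligned the rest to GRCm38 with STAR and used featureCounts (Subread 1.6.2) to count the reads of each Ensembl gene. The deposited values are raw counts, not normalised. Symbols and exons come from GENCODE M21, also on GRCm38, which matched 54495 of 54532 identifiers.

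edgeR 4.0.16 (R 4.3.3) was run with filterByExpr, TMM and genotype as the only term on all 6 libraries, and p-values were adjusted by Benjamini-Hochberg over 16731 genes. Standard errors and 95% intervals were derived from the F statistic, and CPM uses the effective library size. Alternatives were RLE, DESeq2 1.42.0, limma-voom (limma 3.58.1), 2 other filters, each library left out and a replicate block. The fit was tested on simulated data. The members and lists were chosen with earlier results of these data known. Named genes were the members, list genes past the threshold or else the largest, passing genes within 1 Mb and the most similar profiles. Replicates are separate mice per the design text.

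The members' words of 50 bases occurred in no other gene's transcripts, except those opposite exons of Pcdh7, Pcdh8, Pcdh10 and Pcdh19.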

Additional observations from a re-analysis of the deposited data

How the results depend on the processing

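No member passed an adjusted p of 0.05 under any of the 12 alternatives, with adjusted p from 0.259 to 1.00. Leaving out 1 library at a time moved the log2 fold change of Pcdh1 between -0.12 and 0.054, Pcdh7 between -0.15 and 0.073, Pcdh9 between -0.23 and -0.0075, Pcdh11x between -0.084 and 0.16, Pcdh8 between -0.072 and 0.031, Pcdh10 between -0.040 and 0.14, Pcdh17 between 0.0055 and 0.22, Pcdh18 between -0.012 and 0.13, Pcdh19 between -0.15 and 0.14 and Pcdh20 between -0.15 and 0.017. Signs changed in 17 of 120 member fits, all of them with a library left out, and the cause was not tested. The members' median ran from -0.10 to 0.082. Mphosph8 ran from -1.13 to -0.85 and passed throughout.

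Over all genes, 105 passed, 89 higher and 16 lower. With no filter on low counts 242 passed, 175 higher and 67 lower. DESeq2 gave 25 lower. Fits without 1 library gave 66 to 162 in all, 56 to 113 higher and 4 to 49 lower, and the highest total and the 49 lower came without mutant replicate 1. Same-numbered libraries correlated at 0.10, -0.047 and 0.080 in their deviations, and the labels tie no number to a litter, although the study describes the mice as littermates. The numbers were therefore not taken to pair the mice, and whether litters are shared is not given. The replicate block gave 26 lower and 0 members passed.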
